A study of Mus musculus with 4 samples.

Results

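A set of 6 genes of the endocannabinoid system were examined in nuclei of the posterior mouse hindbrain: the cannabinoid receptor gene Cnr1, the diacylglycerol lipase genes Dagla and Daglb, the monoacylglycerol lipase gene Mgll, the fatty acid amide hydrolase gene Faah and the NAPE phospholipase D gene Napepld. These 6 of the 32285 counted genes were chosen by name for their place in the pathway, and each was followed over all cell types and all neuronal clusters of the nuclei kept by the authors. Single-nucleus RNA sequencing with the 10x Genomics 3′ kit had been performed on the part of the hindbrain that holds the area postrema and the nucleus of the solitary tract, to ask which of its neurons respond when hunger is driven through AgRP and POMC neurons together. The control group is labelled WT and, by the methods, lacked both recombinases (AgRP-IRES-Cre-/- and POMC-Dre-/-) but carried the hM3DGqfl/- and hM4DGifl/- alleles, which stay silent without them. The AgRP-Gq;POMC-Gi group carried AgRP-IRES-Cre+/-, hM3DGqfl/-, POMC-Dre+/- and hM4DGifl/-, so that Cre drives the activating receptor in AgRP neurons and Dre the inhibiting receptor in POMC neurons. All mice of both groups were 12 to 20 weeks old, of both sexes, and received the receptor ligand clozapine-N-oxide (CNO) at 3 mg per kg intraperitoneally 1 h before the tissue was taken. Each group held 2 mice. Samples of a condition were pooled according to the methods, so the spread between libraries of a group may be technical. Both groups received CNO, so an effect of CNO itself cannot be told apart here.

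Endocannabinoids are lipids that neurons make on demand in the postsynaptic membrane and that travel back across the synapse to the CB1 receptor on presynaptic terminals, where they reduce transmitter release. The main ones are 2-arachidonoylglycerol (2-AG), made by diacylglycerol lipases and broken down by monoacylglycerol lipase, and anandamide, which can be made by NAPE phospholipase D and is broken down by fatty acid amide hydrolase. In the dorsal vagal complex, CB1 signalling is known for its influence on vagal reflexes, nausea and feeding.

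The 4 libraries held 44303 barcodes, of which 39461 nuclei were kept and 12539 of these annotated as neurons. Summed over neurons, the libraries held from 26860073 to 35583732 UMIs (unique molecular identifiers, each 1 counted transcript), and neurons made up 25.4% to 27.2% of the nuclei in control libraries and 36.5% to 38.01% in AgRP-Gq;POMC-Gi libraries. Between 19 and 36 barcodes were shared by any pair of libraries. Of 22 marker genes for 9 cell types, 19 were highest in the type they mark, and the exceptions were Cspg4 and Mrc1 (highest in mural nuclei) and Slc1a3 (highest in tanycyte-like nuclei). Levels are given as CPM, the UMIs of a gene scaled to a fixed total of 1e+06 UMIs over all genes in the same nuclei, first for the control libraries (replicates 1 and 2) and then for the AgRP-Gq;POMC-Gi libraries (replicates 1 and 2). They compare 1 gene between nuclei and not 1 gene with another, since gene length and priming enter the count. Of the 14 annotated cell types, the 10 with at least 20 nuclei in each library were compared, and the 120 of 134 neuronal clusters that held 5 nuclei or more per library were ranked. Cell types and clusters had been built by the authors from all genes, so differences between them are described without a test.

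Cnr1, on chromosome 4 (GRCm38 chr4:33924593-33948831, plus strand, protein-coding), encodes the CB1 receptor. Among the types compared, it was the only one of the 6 genes with its highest CPM in neurons. By share of nuclei with a UMI, at unequal depths, Dagla, Faah and Napepld were also highest in neurons. By mean log-normalized value Faah was as well. In neurons Cnr1 stood at 27.5, 30.5, 27.4 and 31.1 CPM, and 20.9% of neurons had at least 1 UMI. The 4 libraries lay close together, and each of them was above every library of the other 9 types. Oligodendrocyte precursor cells (OPC) came next at 11.4, 11.9, 9.64 and 6.23 CPM, and 3.83% of them had a UMI. The remaining 8 types had means from 2.22 CPM in ependymal cells (2 UMIs) to 7.48 CPM in endothelial cells, and from OPC down each type overlapped the next one in the order. Other neuronal transcripts were found at low levels in the same nuclei. In oligodendrocytes Cnr1 reached 13.1% of its level in neurons, whereas the neuronal markers Snap25, Syt1 and Rbfox3 reached 13.0%, 1.97% and 3.28% of theirs. In OPC the shares were 33.6% for Cnr1, 39.4% for Snap25, 5.09% for Syt1 and 3.35% for Rbfox3. The Cnr1 shares thus lay near those of Snap25, a gene of the synaptic release machinery, and above those of Syt1 and Rbfox3, and no expression outside neurons is read from them. When every nucleus was thinned to 800 UMIs, 2.35% of neurons and 0.327% of oligodendrocytes kept a Cnr1 UMI. Median depth was 8704 UMIs in neurons and 2460 UMIs in oligodendrocytes.

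**Figure D1:**
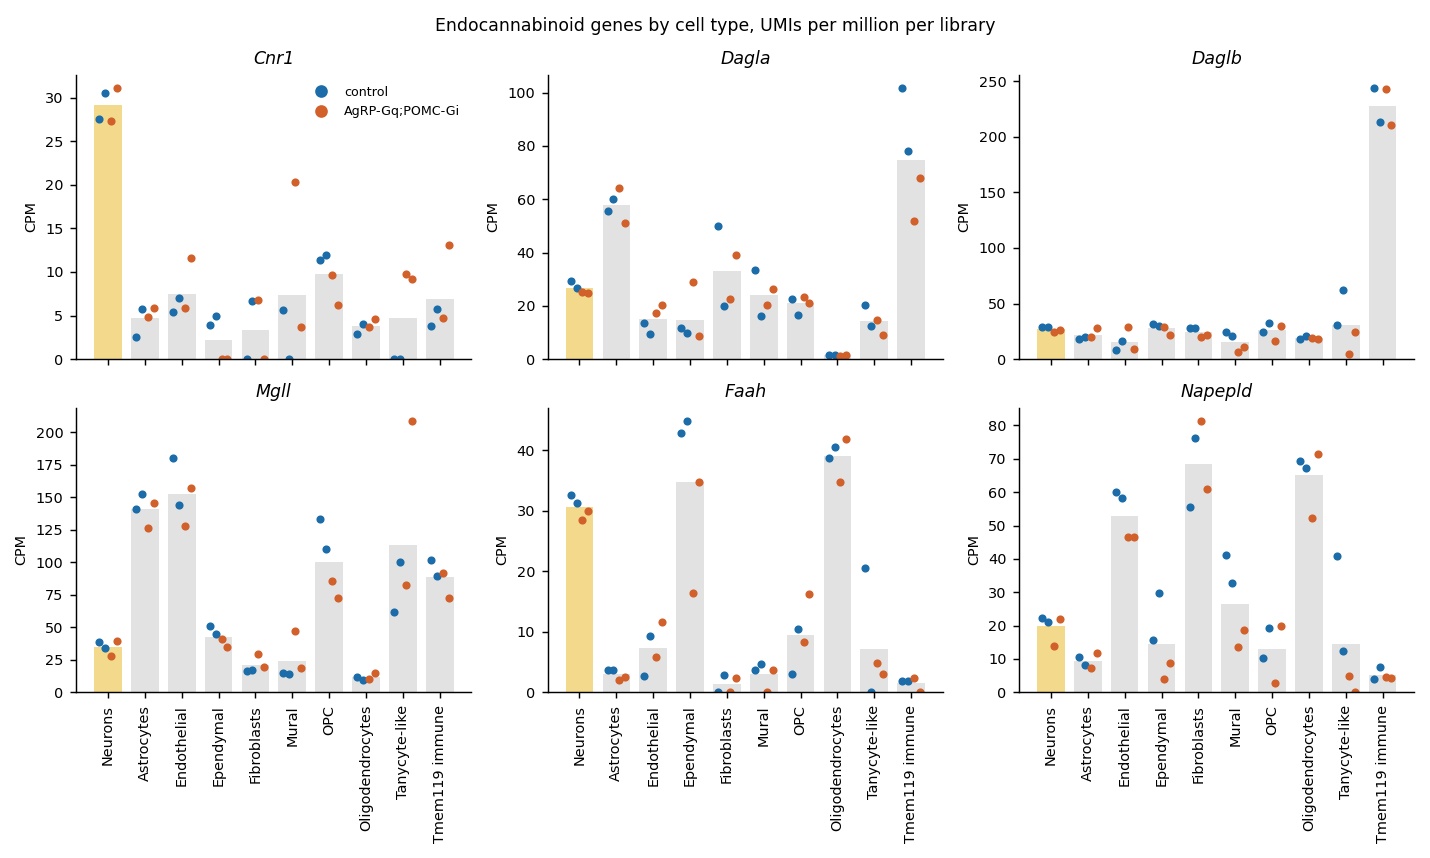
CPM of each gene (vertical axis) in the 10 cell types with at least 20 nuclei in every library (horizontal axis), with 1 point per library, blue for control and orange for AgRP-Gq;POMC-Gi, and bars at the mean of the 4 libraries (neurons in yellow). Cnr1 is highest in neurons, Daglb in Tmem119 immune cells, Dagla is lowest in oligodendrocytes, and Faah is near 0 in Tmem119 immune cells.

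In CPM both genes of 2-AG synthesis were highest in the cells annotated as Tmem119 immune cells, named for a microglial gene, and not in neurons. Dagla (chr19:10245265-10304877, minus strand) stood at 102, 78.1, 51.9 and 67.9 CPM in Tmem119 immune cells and at 55.4, 60.2, 64.2 and 51.2 CPM in astrocytes. These 2 types overlapped, and Tmem119 immune cells were the highest type in 3 of the 4 libraries. Neurons held 29.3, 26.8, 25.2 and 24.9 CPM (21.5% of neurons with a UMI), below every library of astrocytes and of Tmem119 immune cells. Oligodendrocytes were at the other end with 1.46, 1.68, 1.16 and 1.40 CPM, from 66 UMIs in 16816 nuclei, and 0.381% of them had a UMI. Dagla was thus detected in oligodendrocytes at a level far below that of every other type compared, the next being tanycyte-like cells at 14.2 CPM.

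Daglb (chr5:143464584-143505942, plus strand), the second diacylglycerol lipase gene, stood apart in Tmem119 immune cells at 244, 213, 243 and 210.2 CPM, where 35.0% of nuclei had a UMI. All 4 libraries were far above those of the other 9 types. Neurons held 29.0, 28.7, 24.4 and 26.5 CPM and 22.3% of neurons had a UMI. Neurons and 7 further types ran from 15.6 CPM in endothelial cells to 27.9 CPM in ependymal cells, and each overlapped its neighbour in the order. Tanycyte-like cells, at 30.7, 62.5, 4.86 and 24.5 CPM from 17 UMIs, spread across this whole range. Daglb overlaps Rac1, which lies on the opposite strand, and the 10x 3′ kit keeps the strand of the transcript. Rac1 was at 161, 175, 142 and 134 CPM in Tmem119 immune cells and at 30.9, 32.5, 25.9 and 31.7 CPM in neurons. Its part in the Daglb count was not tested.

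Mgll (chr6:88724412-88828360, plus strand), whose product ends 2-AG signalling in most of the brain, was high in endothelial cells, astrocytes, tanycyte-like cells, OPC and Tmem119 immune cells. Endothelial cells held 180, 144, 128 and 157 CPM, and astrocytes held 141, 152, 126 and 145 CPM with a UMI in 33.5% of nuclei. These types overlapped each other and the tanycyte-like cells (113 CPM), and OPC held 133, 110.3, 85.4 and 72.2 CPM. Tmem119 immune cells (88.9 CPM) overlapped OPC and lay above every library of the next type, ependymal cells (42.9 CPM). Neurons were seventh of the 10 types at 38.8, 34.1, 28.0 and 39.3 CPM, with a UMI in 21.8% of nuclei. Every library of astrocytes was more than 3 times the highest neuronal library. Mural cells (23.7 CPM) and fibroblasts (20.7 CPM) had lower means than neurons. Oligodendrocytes were lowest again, at 11.7, 9.63, 10.0 and 14.7 CPM, below every neuronal library. In the GENCODE M21 annotation 3 genes lie within or across Mgll on the same strand, none of them counted in the deposited tables.

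The genes of anandamide turnover showed another order, with oligodendrocytes at or near the top in CPM. Faah (chr4:115967145-116017926, minus strand), which breaks anandamide down, stood at 38.8, 40.5, 34.8 and 41.9 CPM in oligodendrocytes and at 32.5, 31.3, 28.6 and 29.9 CPM in neurons. Every oligodendrocyte library was above every neuronal one, although 7.97% of oligodendrocytes and 24.04% of neurons had a UMI at their unequal depths. After thinning to 800 UMIs, the shares were 2.30% and 2.22%. By the mean over nuclei of log-normalized values the order turned, with 0.186 in neurons and 0.118 in oligodendrocytes. Ependymal cells, with 32 UMIs in all, overlapped both. The other 7 types were lower than these 3 in every library except for 1 of tanycyte-like cells, with means from 1.33 CPM in fibroblasts (4 UMIs) to 9.50 CPM in OPC. Astrocytes, high in Mgll, held 3.68, 3.76, 2.09 and 2.54 CPM of Faah, and Tmem119 immune cells held 3 Faah UMIs in 969 nuclei.

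Napepld (chr5:21662901-21701396, minus strand), the anandamide-synthesising member, was highest in fibroblasts at 55.6, 76.3, 81.3 and 61.0 CPM and in oligodendrocytes at 69.4, 67.3, 52.2 and 71.6 CPM, and these overlapped. Endothelial cells followed at 52.8 CPM. Neurons held 22.4, 21.2, 14.0 and 21.8 CPM, below every library of those 3 types, and 15.7% of neurons had a UMI. AgRP-Gq;POMC-Gi replicate 1 was the lowest of the 4 libraries in neurons. It was also the lowest in oligodendrocytes, astrocytes, OPC, ependymal and mural cells. In endothelial cells both AgRP-Gq;POMC-Gi libraries held 46.6 CPM, in Tmem119 immune and tanycyte-like cells another library was the lowest, and in fibroblasts replicate 1 was the highest. Astrocytes (9.49 CPM) and Tmem119 immune cells (5.14 CPM) were lowest.

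Counted by transcript, neurons gave 61.8% of all UMIs in the kept nuclei. They gave 91.7% of the Cnr1 UMIs, 71.0% of those of Dagla, 62.98% of Daglb, 52.6% of Mgll, 66.3% of Faah and 40.4% of Napepld. Oligodendrocytes gave 22.6% of all UMIs and 49.6% of the Napepld UMIs, but 1.42% of those of Dagla. These shares depend on how many nuclei of each type were captured.

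Within neurons, Mgll and Cnr1 varied most between clusters and Daglb least. The coefficient of variation (CV, the SD over clusters divided by the mean) was computed over the 120 clusters after the variance expected from counting alone was taken off. It was 1.13 for Mgll and 0.762 for Cnr1, higher than in 97.8% and 94.1% of the 7585 genes with a mean of at least 20 CPM. For Napepld it was 0.499, higher than in 87.5% of these genes. Faah (0.227), Dagla (0.201) and Daglb (0.165) lay near the median gene, 0.172. The profile over clusters was computed from the control libraries and from the AgRP-Gq;POMC-Gi libraries separately, and Spearman's rho between both was 0.80 for Cnr1, 0.75 for Mgll, 0.46 for Napepld, 0.32 for Faah, 0.22 for Dagla and 0.10 for Daglb. The order of clusters below therefore repeats between the groups for Cnr1 and Mgll, less so for Napepld, and mostly not for Faah, Dagla and Daglb. Clusters differ in depth, and rho between a gene's level and the UMIs per nucleus of the cluster was -0.40 for Cnr1 and between -0.11 and 0.22 for the other members.

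**Figure D2:**
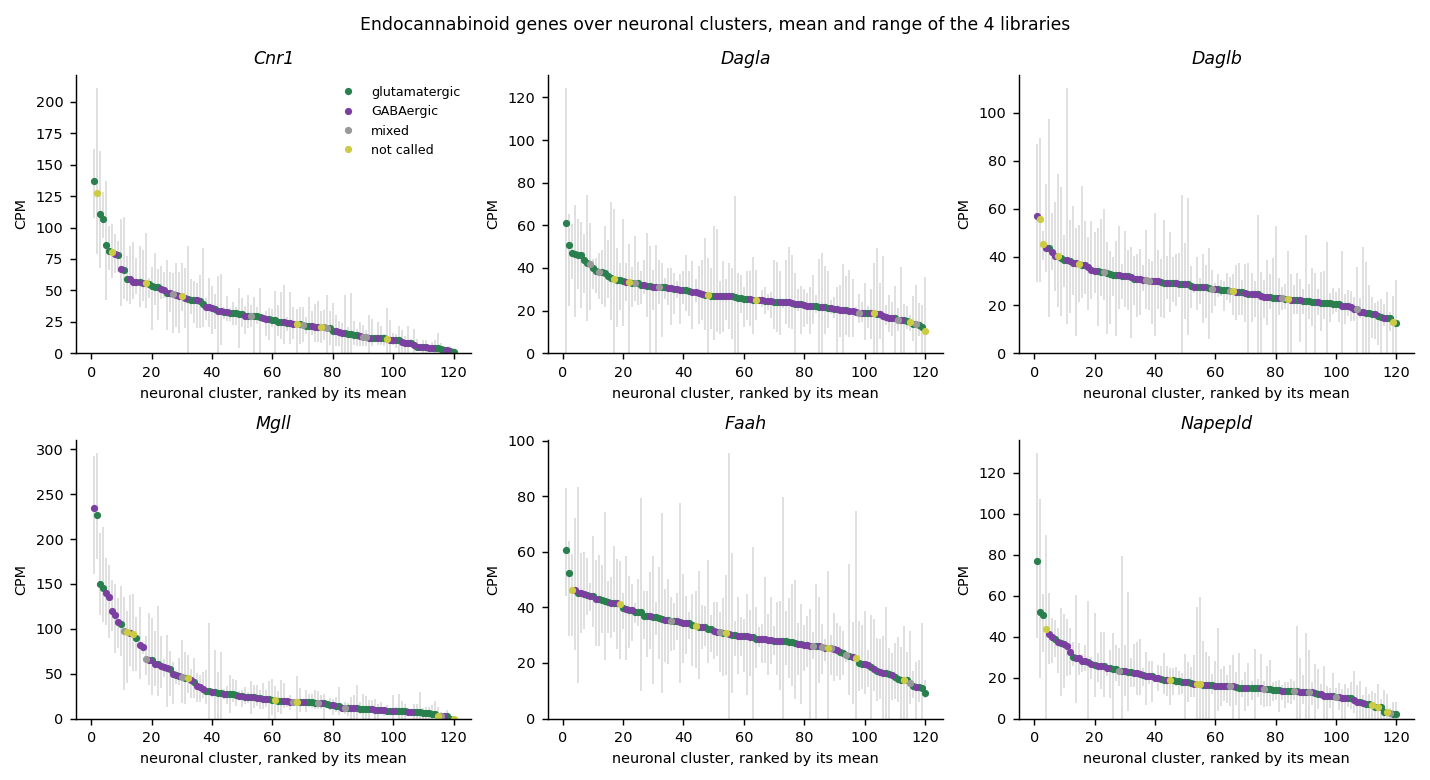
CPM (vertical axis) of each gene in the 120 ranked neuronal clusters, ordered by the mean (horizontal axis). Points are means of the 4 libraries coloured by transmitter class and grey lines run from the lowest to the highest library. Cnr1 and Mgll fall steeply from a few high clusters, whereas Dagla and Daglb stay within a narrow band of means.

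Cnr1 ranged from 1.00 to 137 CPM over clusters, with a median of 26.7 CPM. It exceeded 2 times its median in 19 clusters and lay under a level of 0.5 times the median in 31. The highest was cluster 80 (Pdyn/Cpa6, glutamatergic, 115 nuclei) at 131, 162, 148 and 108 CPM, where 56.5% of nuclei had a UMI. Pdyn encodes the opioid precursor prodynorphin. Cluster 157 (Cnpy1/Adamts18, 51 nuclei, transmitter class not called) followed at 211, 119, 79.1 and 99.4 CPM, with both Gad1 and Gad2 detected. It also held the vesicular transporter genes Slc17a6 of glutamate (32.7 CPM) and Slc32a1 of GABA and glycine (33.3 CPM). Next was cluster 76 (120 nuclei), which held Dbh and Th, genes of catecholamine synthesis, at 111, 161, 67.9 and 104 CPM and with a UMI in 46.7% of nuclei. Clusters 147 (Col5a2/Col6a1) and 155 (Kcnh8/Arhgap6) completed the top 5 with means of 106 and 86.4 CPM. In cluster 155 the libraries spread from 42.1 to 137 CPM, from 32 UMIs in all. At the low end, cluster 42 (Mylk/Mctp2, glutamatergic) held 1 Cnr1 UMI in 166 nuclei, cluster 38 (Kcnh8/Maf, glutamatergic) held 5 in 183 nuclei, all in AgRP-Gq;POMC-Gi replicate 2, and cluster 96 (Npsr1/Igf1, GABAergic) held 4 in 102 nuclei. These 3 clusters were not shallow, with 10314 to 12311 UMIs per nucleus. No library of them exceeded 5.85 CPM, and no library of the 5 highest clusters fell below 42.1 CPM.

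Mgll ranged from 0 to 235 CPM, with a median of 20.6 CPM, and exceeded 2 times its median in 33 clusters. Cluster 125 (Otof/Stac, GABAergic, 74 nuclei) was highest at 216, 269, 161 and 293 CPM, and 79.7% of its nuclei had a UMI. Cluster 181 (Sntb1/Cpne4, glutamatergic) held 178, 227, 296 and 205 CPM, and 90.0% of its 30 nuclei had a UMI. Clusters 38 (Kcnh8/Maf), Rxfp1/Ebf2 and 55 (Rab38/Ano1) followed, with means of 150.0, 145 and 139.8 CPM. Every library of these 5 clusters was above 100 CPM, which astrocyte libraries also were. No Mgll UMI was found in cluster 172 (Bnc2/Ebf3, 41 nuclei), which allows a share of nuclei with a UMI of up to 7.32%, or in cluster 180 (Cpa6/Cngb3, 31 nuclei), which allows up to 9.68%. Such limits cover counting error only. Cluster 168 (Rspo2/Ntng1) held 1 UMI in 43 nuclei.

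**Figure D3:**
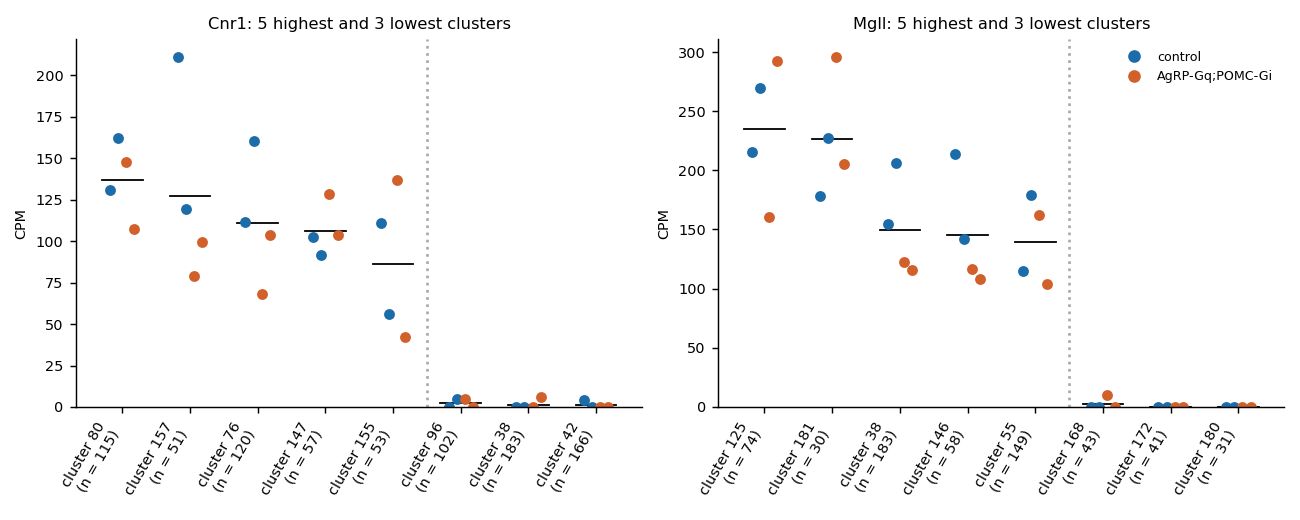
CPM (vertical axis) of Cnr1 and Mgll in their 5 highest and 3 lowest neuronal clusters (horizontal axis, with the number of nuclei), 1 point per library, blue for control and orange for AgRP-Gq;POMC-Gi, with black lines at the means. The clusters were picked by the mean of these libraries, so the gap between high and low ones follows in part from that choice. Cluster 38 is among the high ones for Mgll and the low ones for Cnr1.

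The receptor and the 2-AG hydrolase were mostly high in different clusters. None of the 5 highest clusters of Cnr1 was among the 5 highest of Mgll. Lists of 5 from 120 clusters would seldom share any, so this alone says little. In the 5 highest Cnr1 clusters Mgll ran from 8.29 to 65.7 CPM, and the latter is past 2 times its median. In the 5 highest Mgll clusters Cnr1 ran from 1.46 to 8.59 CPM. Cnr1 lay below its own median in 22 of the 33 clusters with more than 2 times the median of Mgll. Clusters past 2 times the median for both genes numbered 2, which is 10.5% of the Cnr1 clusters and 6.06% of the Mgll clusters. Over all 120 clusters, 33 were past it for Mgll and 19 for Cnr1. Spearman's rho between both genes over the 120 clusters was -0.29, and it was -0.19 within the 61 glutamatergic and -0.56 within the 45 GABAergic clusters. Computed by group it was -0.30 (control) and -0.26 (AgRP-Gq;POMC-Gi). The points share libraries and the denominators of the same nuclei, so these values describe the clusters and carry no p. Among the other 14 pairs of members rho ran from -0.23 (Daglb with Mgll) to 0.27 (Cnr1 with Daglb).

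**Figure D4:**
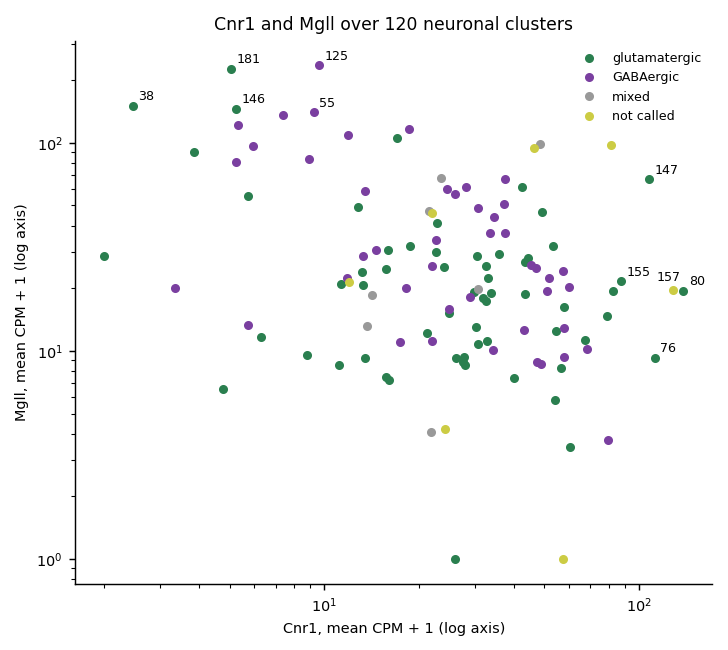
Mean CPM + 1 of Mgll (vertical log axis) against that of Cnr1 (horizontal log axis) in 120 neuronal clusters, coloured by transmitter class, with the numbers of the 5 highest clusters of each gene. The 5 highest clusters of Mgll lie at the left, at 10 CPM of Cnr1 or less, and those of Cnr1 at the right.

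The remaining members are given by their highest clusters, with their spread. Dagla was highest in the Rxfp1/Ebf2 cluster at 124, 0, 95.3 and 25.4 CPM from 20 UMIs, a spread that covers most other clusters. Clusters 72 (Ano2/Foxp2), 38 (Kcnh8/Maf), 143 (Kcnq5/Hs3st4) and 122 (Zfp804b/Lncenc1) followed with means from 46.1 to 50.7 CPM. All 5 were glutamatergic, in an order that mostly did not repeat between the groups. The lowest Dagla clusters were 107, 88 (Il1rapl2/Stpg2) and 157 (Cnpy1/Adamts18) with means from 10.6 to 13.2 CPM. Daglb ran from 12.4 CPM in cluster 72 to 57.1 CPM in cluster 163 (Adamts18/Col25a1), with clusters 104 (Gabra6/Fat2), 142 (Cpne4/Trhde), 103 (Gata3/Crhbp) and 70 (Tfap2b/Cntnap5b) between 43.7 and 55.6 CPM and clusters 88 and 167 (Tph2/Slc6a4) at 14.5 and 13.0 CPM. The last place of cluster 72 for Daglb rests on its libraries of 6 nuclei each (control replicate 2 and the first of AgRP-Gq;POMC-Gi), which held no Daglb UMI. In the remaining libraries the level was 19.3 and 30.2 CPM, and 22.8% of its 127 nuclei had a Daglb UMI.

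Faah was highest in the same cluster 72 at 44.1, 83.1, 66.8 and 49.1 CPM, where the libraries of 6 nuclei held 4 and 3 UMIs, followed by clusters 107 (52.2 CPM), 104, 96 and 149 (Cartpt/Arhgap28), the last 3 between 45.3 and 46.2 CPM. It was lowest in cluster 76 at 7.43, 13.8, 8.15 and 7.80 CPM, next to clusters 168 and 112 (Il1rapl2/Grm8) at 11.04 and 11.3 CPM. All 4 libraries of cluster 76 lay below the lowest library of cluster 72. Both clusters were picked as extremes by the mean of these libraries, so the gap is no test. The Faah order repeated between the groups at a rho of only 0.32. Napepld was highest in cluster 181 at 130, 39.5, 49.3 and 89.3 CPM and in clusters 117 (Ebf2/Nmu), 38, 180 and 87 (Col25a1/Nox4) between 41.5 and 52.2 CPM. Clusters 49 (Ccbe1/Tspan18), 100 (Dlk1/F13a1) and 160 (Ebf2/Ism1) held 4, 2 and 1 Napepld UMIs in 156, 98 and 50 nuclei. Cluster 181 was thus first for Napepld and second for Mgll, and cluster 38 was among the 3 highest for Dagla, Mgll and Napepld. The order of clusters for Dagla mostly did not repeat between the groups.

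Transmitter class was read from Slc17a6, the vesicular glutamate transporter, and Slc32a1, the vesicular GABA and glycine transporter. A 4-fold difference for a class gave 69 glutamatergic and 46 GABAergic clusters. The class called GABAergic thus also holds glycinergic neurons, such as cluster 74 (Rbm20/Nox4) with 268 CPM of the glycinergic marker Slc6a5. Mgll showed the widest gap between the classes. GABAergic neurons held 46.6, 42.7, 36.2 and 54.1 CPM of Mgll and glutamatergic neurons held 34.0, 27.3, 18.9 and 28.0 CPM. The GABAergic level was higher in each of the 4 libraries, by a ratio of 1.66 ± 0.275 (SD, n = 4), and the 2 classes did not overlap. The gap was smaller between the medians over clusters, which were 24.9 CPM for GABAergic and 18.2 CPM for glutamatergic clusters. The ratio was 0.851 ± 0.0671 for Cnr1 and 0.858 ± 0.0286 for Dagla, below 1 in every library, and 1.13 ± 0.0408 for Napepld, above 1 in every library. For Faah (0.949 ± 0.0776) and Daglb (1.06 ± 0.0839) the libraries fell on both sides of 1. No neurochemical marker among Cck, Th, Dbh, Gcg, Slc6a5, Gad1 and Gad2 had a rho beyond 0.27 in size with any member over the 120 clusters. The largest was that of Slc6a5, which marks glycinergic neurons, with Mgll and with Napepld, at 0.27 each.

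In the clusters that the study named, the members differed from cluster to cluster. Ranks given here for Dagla and Faah come from orders that mostly did not repeat between the groups. The paper ranked clusters 63, 76, 82 and Gcg/Reln highest for immediate early genes, which it used as signs of neuronal activity. Clusters 97 and Rxfp1/Ebf2 were related Th clusters without activation by that rank. Cluster 63 (Ebf2/Th) held 4 Cnr1 UMIs in 139 nuclei and was 110th of 120 for Cnr1, but 10th for Dagla at 43.1, 30.0, 42.8 and 44.3 CPM and 26th for Mgll at 54.7 CPM. Cluster 76 was among the 3 highest for Cnr1, 101st for Mgll at 8.29 CPM, 104th for Napepld and last for Faah. Cluster 97 (Gfral/Sctr), marked by the GDF15 receptor gene, held 59.1, 43.9, 58.0 and 60.0 CPM of Cnr1, 19th of 120, and 4 Mgll UMIs in 101 nuclei, all in control replicate 2. The Gcg/Reln cluster, the preproglucagon neurons, lay in the middle for Cnr1 (29.7 CPM) and Faah (27.6 CPM) and low for Mgll (9.74 CPM) and Napepld (9.87 CPM). Cluster 82 (Tal1/Nell1, GABAergic) was 11th for Faah at 57.1, 26.2, 33.5 and 55.3 CPM and 97th for Mgll at 9.07 CPM. In the Rxfp1/Ebf2 cluster, 2 Cnr1 UMIs were found in 58 nuclei, against 213, 142, 117 and 108 CPM of Mgll.

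The genes whose profile over the 120 clusters was most like that of a member were ranked by Spearman's rho among the 7585 genes with a mean of at least 20 CPM. For Cnr1 these were Tut4 (0.57), Eef1a1 (0.56), 0610043K17Rik (0.55), Grb10 (0.54) and Minar2 (0.54). For Mgll they were the NMDA receptor subunit gene Grin2a (0.56), Mcc (0.54), Prmt8 (0.49), Peak1 (0.49) and Adgrl2 (0.48). Napepld was nearest to P3h2, Galnt9, Stk24, 4930445B16Rik and Hacd4, with rho from 0.43 to 0.47. The values were lower for the other members. Dagla was nearest to Gm5441, Tasp1, Ajap1, Camkv and Dlgap3 (0.38 to 0.41). Daglb was nearest to Mocs2, Hdhd5, E130102H24Rik and Macf1 (0.37 to 0.40), and Faah to Dusp15, Nrg2, Sfxn3 and Srcin1 (0.36 to 0.37). Each list holds the highest of 7585 values, without a test. Between the groups the profiles of Dagla, Daglb and Faah themselves repeated at rho of only 0.22, 0.10 and 0.32, so no relation is read from their lists. The Cnr1 profile had a rho of -0.40 with depth, whose part in its list was not tested.

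Between the groups, no member differed past the test in any cell type. In neurons Cnr1 differed by a log2 fold change (AgRP-Gq;POMC-Gi over control) of 0.07 ± 0.09 (SE) and by edgeR's quasi-likelihood test had an adjusted p of 0.881, with 95% limits of -0.15 and 0.29. The libraries of both groups overlapped. Faah differed by -0.07 (limits -0.26 and 0.13), Dagla by -0.10 (limits -0.34 and 0.13), Daglb by -0.12 (limits -0.32 and 0.08) and Mgll by -0.06 (limits -0.38 and 0.26). For Dagla, Daglb and Faah both control libraries were above both AgRP-Gq;POMC-Gi libraries, and for Mgll and Napepld the groups overlapped. Of the 12115 genes tested, 38.1% did not overlap between the groups in CPM and 27.7% had both control libraries on top, against 3 of the 6 members on either count. Napepld differed most, by -0.23 ± 0.17 (limits -0.64 and 0.17, adjusted p = 0.815 by edgeR). That value was set by AgRP-Gq;POMC-Gi replicate 1: without this library the difference was 0.0059, whereas leaving out AgRP-Gq;POMC-Gi replicate 2 gave -0.53 with an adjusted p of 0.0148 by edgeR, the lone library being assumed to vary like those of the other group. In that fit 2044 of 12125 genes (16.9%) were called, and Napepld was the only member among them. Of all 12115 genes tested in neurons, 0% passed the adjusted threshold of 0.05 and 5.51% had an unadjusted p under 0.05, against 0 of the 6 members on either count. DESeq2 called 10 of the 12115 genes, none of them a member. The 8 markers of oligodendrocytes, astrocytes and microglia, all detected in every library, summed to 82.5 and 70.5 CPM in neurons of control libraries, against 48.6 and 61.4 CPM for AgRP-Gq;POMC-Gi, and each was at or under 1.29% of its level in its own type. Mog, Mobp and Mag of oligodendrocytes and Slc1a3 and Gja1 of astrocytes were higher in both control libraries, whereas Aqp4 and the microglial Csf1r and Cx3cr1 overlapped between the groups. Their part in the values above was not tested.

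**Figure D5:**
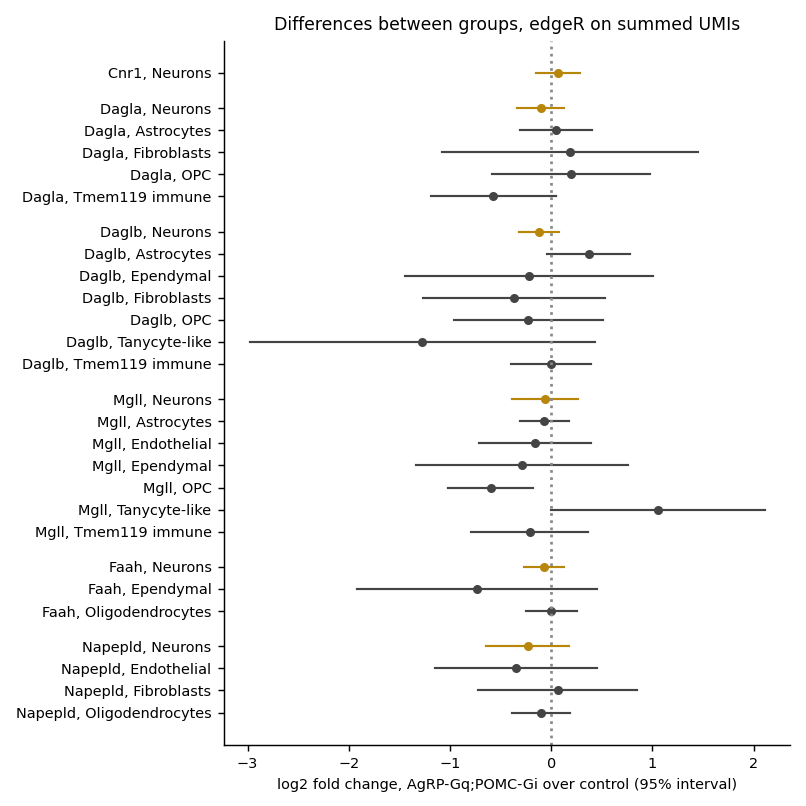
Log2 fold change of AgRP-Gq;POMC-Gi over control (horizontal axis) with its 95% interval for each member and cell type in which at least 5% of nuclei had a UMI (vertical axis), neurons in gold. Every interval includes 0 except that of Mgll in OPC, whose adjusted p was 0.546.

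In the other 9 cell types a member had a UMI in at least 5% of nuclei in 21 pairs of member and type, and these were tested. Cnr1 passed this filter in neurons alone. None of the 21 was called by edgeR or by DESeq2, against 0.148% of the 67663 pairs of gene and type tested, and 1 had an unadjusted p under 0.05, against 6.39% of all pairs. That pair was Mgll in OPC, with 133 and 110.3 CPM in control libraries against 85.4 and 72.2 CPM for AgRP-Gq;POMC-Gi. The groups did not overlap, as for 34.8% of the 9016 genes tested in OPC, and the log2 difference of -0.60 ± 0.20 (SE) had an adjusted p of 0.546 by edgeR. In astrocytes the log2 differences were 0.04 for Dagla, 0.37 for Daglb and -0.07 for Mgll, in Tmem119 immune cells -0.57 for Dagla, -0.0036 for Daglb and -0.21 for Mgll, and in oligodendrocytes 0.0012 for Faah and -0.10 for Napepld. The narrowest of these intervals was that of Mgll in astrocytes, from -0.31 to 0.17. In tanycyte-like cells, with 202 nuclei in all, the interval of Mgll ran from -0.0062 to 2.11.

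Over single neuronal clusters, 686 pairs of member and cluster passed the filter and were tested. None was called by edgeR or by DESeq2, against 0.0387% of all 1396489 pairs of gene and cluster by edgeR. An unadjusted p under 0.05 was found in 27 of the 686, or 3.94%, against 4.51% of all pairs, so the share for the members was near that of all genes. By member these were 10 clusters for Mgll, 6 for Napepld, 4 each for Cnr1 and Dagla, 3 for Daglb and 0 for Faah. DESeq2 gave 0 of the 686 at an unadjusted p under 0.05, against 0.39% of all pairs. The lowest p belonged to Cnr1 in cluster 75 (Qrfprl/Baiap3, GABAergic), at 0, 30.3, 42.8 and 61.5 CPM and with an adjusted p of 0.555 by edgeR. Daglb in cluster 153 (Lmo3/Cpne4) followed at 0, 8.84, 65.7 and 41.0 CPM from 15 UMIs, and Dagla in cluster 124 (Zfp804b/Dlk1) at 42.0, 29.7, 0 and 9.67 CPM from 21 UMIs, with adjusted p of 0.990 and 0.850 by edgeR.

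It was also tested whether the difference between groups differed between GABAergic and glutamatergic neurons. Of 12141 genes 0% passed the adjusted threshold and 4.72% had an unadjusted p under 0.05. Among the members only Mgll was in the latter share, with an interaction of 0.40 ± 0.10 (log2, SE) and an adjusted p of 0.991 by edgeR. The Mgll ratio of AgRP-Gq;POMC-Gi to control was thus higher in GABAergic than in glutamatergic neurons without passing the test over all genes. For the other 5 members the interaction lay between -0.19 (Daglb) and 0.06 (Dagla).

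The wider pathway was followed with 28 further genes, among them the second cannabinoid receptor, phospholipases that supply diacylglycerol, other hydrolases and G proteins coupled to CB1. A UMI was found in at least 5% of neurons for 19 of them and in at least 20% for 13. Among the latter were Abhd12, Abhd6, Cnrip1, Gde1, Gdpd1, Gnai1, Gnao1, Grm5, Pla2g4e, Plcb1, Plcb4 and Sgip1. Gdpd1 (80.4 CPM) and Pla2g4e (38.9 CPM), the latter a calcium-dependent N-acyltransferase that makes the precursor of anandamide, were higher in neurons than in the other 9 types compared. Grm5, the metabotropic glutamate receptor that drives 2-AG formation at many synapses, was at 1317 CPM in neurons and 1870 CPM in OPC, where 95.9% of nuclei had a UMI. Plcb1, which supplies diacylglycerol, was at 571 CPM in neurons and 4828 CPM in astrocytes, and Plcb4 at 314 CPM in neurons and 864 CPM in endothelial cells. The other 2-AG hydrolases Abhd6 and Abhd12 were at 54.3 and 89.8 CPM in neurons, against 84.1 CPM of Abhd6 in astrocytes and 670.1 CPM of Abhd12 in Tmem119 immune cells. Cnrip1 and Sgip1, whose products bind CB1, were at 88.9 and 568 CPM in neurons, against 122 CPM in OPC and 1021 CPM in mural cells. The G protein genes Gnai1 and Gnao1 were at 69.7 and 197 CPM in neurons and at 247 and 1047 CPM in oligodendrocytes, and Gde1 was at 46.4 CPM in neurons and 92.0 CPM in endothelial cells. Cnr2, the CB2 receptor gene, was near 0 in neurons (0.181 CPM) and at 31.2 CPM in Tmem119 immune cells, so that these cells held both diacylglycerol lipase genes, Mgll, Abhd12 and Cnr2, but little Cnr1 and 3 UMIs of Faah.

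Of the 19 further genes tested between groups in neurons none passed the adjusted threshold, and 3 (Fabp5, Cnrip1 and Plcb1) had an unadjusted p under 0.05. The latter share over all genes was 5.51%. In other cell types 2 of 128 pairs were called and 16 had an unadjusted p under 0.05, against 0.148% and 6.39% of all pairs of gene and type. Both calls lay in the types with the most calls over all genes. These were astrocytes (53 of 8462 genes) and mural cells (43 of 5723 genes). Fabp7, a fatty acid binding protein that carries anandamide, was higher in astrocytes of AgRP-Gq;POMC-Gi mice, at 50.5 and 62.9 CPM against 29.4 and 29.3 CPM in control libraries. The log2 difference was 0.99 ± 0.14 (SE) with an adjusted p of 0.0159 by edgeR, and it stayed past the threshold without any 1 library, with adjusted p from 0.00270 to 0.0212. The astrocyte marker Aqp4 also separated in astrocytes, at 353 and 320.3 CPM in control libraries against 446 and 441 CPM, whereas Gja1 and Slc1a3 overlapped between the groups. Fabp7 was highest in tanycyte-like cells (130.2 CPM), of which the control libraries held 26 each and the AgRP-Gq;POMC-Gi libraries 67 and 83 nuclei. The part of either in the Fabp7 difference was not tested. Plcb1 in mural cells was called at 164 and 444 against 20.3 and 194 CPM, where the groups overlap. A UMI was found in 5.09% of mural nuclei, just past the 5% filter, and without control replicate 2 the gene was not tested. The log2 difference was -0.60 without AgRP-Gq;POMC-Gi replicate 1 and -3.77 without replicate 2, and the call was lost in both fits. It was also lost without TMM factors (adjusted p of 0.0554 by edgeR), with filterByExpr (0.307 by edgeR) and in DESeq2 (0.999).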

How the data were processed

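The authors aligned reads to GRCm38 with Cell Ranger 7.0.0 and processed nuclei with Seurat 4.3.0, per the labels. The deposited matrices hold UMI counts per gene and nucleus. A deposited table of the authors gives each barcode's library, quality call, cluster and cell type, and mitochondrial percent. Its quality call, clusters and cell types were used as given, and doublets had been removed by the authors. The UMI totals of the matrices equalled those of the table for 44303 of 44303 barcodes.

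UMI counts were summed per library and cell type, neuronal cluster or transmitter class, and CPM was computed from these sums. A cluster's level is the mean of its 4 libraries with equal weight, whatever their nuclei. Groups were compared with edgeR 4.0.16 (quasi-likelihood test, TMM factors, Benjamini-Hochberg adjustment at 0.05) over genes detected (1 UMI or more) in 5% of nuclei, and with DESeq2 1.42.0 as an alternative. Other alternatives were no TMM factors, no filter, edgeR's filterByExpr, a replicate block, and each library left out. The scripts were tested on simulated data. Transmitter classes needed a 4-fold difference and at least 20 UMIs. Whether the libraries of a group are separate mice is not stated in the sources used here, so p-values measure only the spread between libraries. The members and gene lists were chosen with earlier results of these data known. Named were all members, their 5 highest and 3 lowest clusters, their 5 most alike genes, the clusters the study followed, the 3 pairs of lowest p, and further pathway genes called or with a UMI in at least 20% of neurons. Some of these are not reported here.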

Additional observations from a re-analysis of the deposited data

How the results depend on the processing

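The number of genes called in neurons was 0 by edgeR's quasi-likelihood test, 10 with DESeq2, 1 without the filter and 168 with the replicate block, and from 4 to 2044 with 1 library left out, the highest without AgRP-Gq;POMC-Gi replicate 2. The number of members called was 0 to 1 over those fits, and the 1 was Napepld in neurons. Leaving out 1 library moved the log2 difference in neurons from -0.0039 to 0.14 for Cnr1, from -0.26 to 0.12 for Mgll and from -0.53 to 0.0059 for Napepld. In other types it ran from -0.21 to 0.29 for Dagla in astrocytes, from -0.69 to 0.62 for Dagla and from -0.20 to 0.37 for Napepld in fibroblasts, from -0.32 to 0.0018 for Mgll in endothelial cells, from -0.66 to 0.075 for Daglb in OPC, from -0.046 to 0.055 for Faah and from -0.24 to 0.039 for Napepld in oligodendrocytes, and from -0.16 to 0.15 for Daglb and from -0.44 to 0.0047 for Mgll in Tmem119 immune cells. Signs near 0 also turned for Dagla in astrocytes without TMM factors (-0.0043), Dagla in fibroblasts with DESeq2 (-0.056), Daglb in Tmem119 immune cells with DESeq2 (0.0054) and filterByExpr (0.0036), and Faah in oligodendrocytes without TMM factors (-0.049) and without the filter (-0.0097). The cause was not tested.

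With the replicate block Faah in oligodendrocytes turned to -0.00037, and the block changed no call of a member. Over 12115 genes the replicate differences of both groups correlated at 0.18, and 2 pairs are too few to take the numbers as a pairing.

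By mean log-normalized value neurons ranked 3 for Dagla, 2 for Daglb and 1 for Faah among the cell types, and with 1 library left out from 4 to 5 for Dagla and from 3 to 4 for Daglb. After thinning to 2000 UMIs, the 5 highest clusters shared 3 with those at full depth for Cnr1 and for Napepld, and 1 for each of Dagla, Daglb and Faah. With 1 library left out they shared 3 to 4 for Dagla, 2 to 4 for Daglb and 2 to 3 for Faah. With a 10-fold difference for a class, the GABAergic to glutamatergic ratio was 0.927 for Cnr1 and 1.22 for Napepld. The filterByExpr alternative was not run for clusters and gave no value for Daglb in ependymal and tanycyte-like cells, where the gene did not pass it.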
